A study of Mus musculus with 6 samples.

Results

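The globin genes measured here were Hba-x, Hbb-y and Hbb-bh1, which encode the embryonic chains, and Hba-a1, Hba-a2, Hbb-bs and Hbb-bt, which encode the adult chains. These 7 genes were chosen by name for their place in the globin family, with earlier results of these data known. Each matched 1 of the 55487 gene IDs in the count table. They were read in RNA-Seq of mouse rib cage at 16.5 dpc (days post coitum). There were 3 control embryos (E420, E434 and E435), labelled wild type, and 3 mutant embryos (E423, E433 and E440), labelled Col2-cre;Foxc1-/-;Foxc2-/-. In the mutants the Col2-cre transgene, whose collagen II promoter is active in cartilage progenitors and the cartilage that forms from them, deletes the transcription factor genes Foxc1 and Foxc2. The study's methods state that littermates were compared, but which of these embryos shared a litter was not given and the tests hold no litter term. The methods cross Foxc1 fl/fl;Foxc2 fl/fl females with Col2-cre+/-;Foxc1+/Δ;Foxc2+/Δ males on a mixed C57B6 and Black Swiss background. Every embryo of such a cross receives a floxed allele of each gene from its mother, so the controls of that cross are not free of engineered alleles. Each library came from the whole rib cage of 1 embryo, freed of connective tissue and frozen, and how much blood stayed in the tissue was not given.

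Haemoglobin is built from alpha-like and beta-like globin chains, each holding a heme group. Red cells arise in the mouse in successive waves. Primitive red cells from the yolk sac make zeta globin (Hba-x) with epsilon-y (Hbb-y) and beta-h1 (Hbb-bh1), while definitive red cells, made first in the fetal liver and later in bone marrow, make adult alpha (Hba-a1, Hba-a2) and adult beta (Hbb-bs, Hbb-bt). The mouse has no separate fetal globin of the human gamma kind. Primitive red cells still circulate at this age but are outnumbered by definitive ones. Rib cage holds cartilage, forming bone, muscle and vessels, so its globin RNA comes from blood and from any blood-forming cells in the sample. In bulk RNA, fewer red cells and less globin RNA per red cell cannot be told apart.

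The alpha-like members lie on chromosome 11 of GRCm38, on the plus strand, with Hba-x from 32276400 to 32278116, Hba-a1 from 32283511 to 32284465 and Hba-a2 from 32296489 to 32297298. The beta-like members lie on chromosome 7, on the minus strand. In the direction of transcription, Hbb-y runs from 103853216 to 103851749, Hbb-bh1 from 103843164 to 103841637, Hbb-bs from 103828096 to 103826534 and Hbb-bt from 103813996 to 103812524. Each coding sequence spans 3 exons. In both clusters the embryonic genes come first.

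The sequences below show which members a read can tell apart, since each read was 42 bases long. Between the adult beta copies, 1 of 444 coding bases differed (C417T, with Hbb-bs first and positions counted from the A of the start codon), and between the adult alpha copies 1 of 429 did (C381T, with Hba-a1 first). Windows of read length that end at that base are given for each pair, with the differing base in capitals.
Hbb-bs, coding bases 376 to 417, chr7:103826692-103826733, minus strand: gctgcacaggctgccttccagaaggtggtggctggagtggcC
Hbb-bt, coding bases 376 to 417, chr7:103812683-103812724, minus strand: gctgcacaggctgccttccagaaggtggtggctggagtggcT
Hba-a1, coding bases 340 to 381, chr11:32284302-32284343, plus strand: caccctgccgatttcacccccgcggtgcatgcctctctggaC
Hba-a2, coding bases 340 to 381, chr11:32297119-32297160, plus strand: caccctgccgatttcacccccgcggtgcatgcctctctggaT
Embryonic and adult chains were far apart by comparison. Hbb-y differed from Hbb-bs at 114 of 444 coding bases (74.3% identical) and Hba-x from Hba-a1 at 163 of 429 (62.0% identical). In the windows that follow, 19 of the 42 bases differed and are in capitals.
Hbb-bs, coding bases 212 to 253, chr7:103827510-103827551, minus strand: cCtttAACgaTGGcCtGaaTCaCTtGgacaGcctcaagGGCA
Hbb-y, coding bases 212 to 253, chr7:103852810-103852851, minus strand: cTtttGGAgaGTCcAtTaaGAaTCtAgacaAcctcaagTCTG

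In the transcripts, 69.2% of all 42-base words of Hba-a1, 88.7% of Hba-a2, 66.3% of Hbb-bs and 58.8% of Hbb-bt also occurred in another gene, in each case the paired copy and, for the alpha pair, the pseudogene Hba-ps4 as well. For Hba-x, Hbb-y and Hbb-bh1 none did. The featureCounts command was set to count the primary alignment of every read, so a read that fits both copies was given to whichever the aligner wrote as primary. RSEM instead divided such fragments between the copies by a model. These rules gave different splits. Hba-a1 held between 54.1% and 56.0% of the alpha pair in featureCounts and between 29.2% and 32.0% in RSEM, and Hbb-bs held between 58.4% and 62.1% of the beta pair in featureCounts and between 76.9% and 81.2% in RSEM. Summed over a pair, the pipelines were close, since the featureCounts counts, which take each end of a fragment on its own, were 0.939 to 0.969 times the RSEM fragments multiplied by 2 for the alpha pair and 0.967 to 1.03 times for the beta pair. Which alpha copy held more counts therefore differed between the pipelines, while Hbb-bs held more of the beta pair in both. Black Swiss mice may carry other adult beta alleles than the C57BL/6 reference, and the allele of each embryo was not analysed here.

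**Figure D1:**
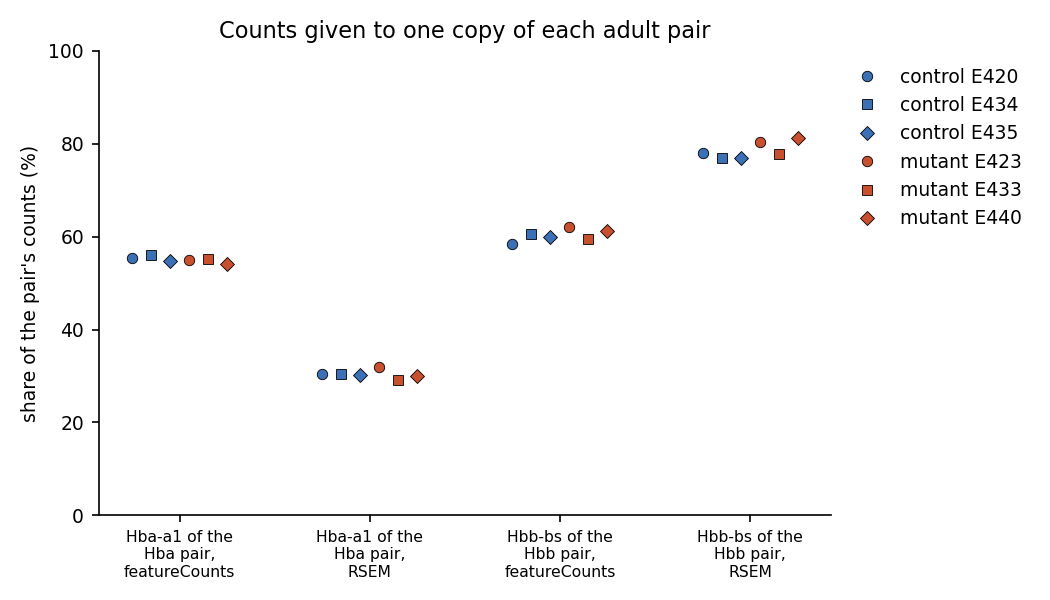
Share of the counts of each adult pair given to Hba-a1 (left) and to Hbb-bs (right), in percent, for each of the 6 libraries, from featureCounts and from RSEM expected counts. Hba-a1 takes 54.1% to 56.0% of its pair in one pipeline and 29.2% to 32.0% in the other, while libraries within a pipeline lie close together.

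The promoters were compared because adult members were alike in which libraries were high or low and embryonic members differed from them in E433 in the results that follow. The 150 bases before the RefSeq start site (GRCm38.p6), which need not be the end of the gene spans above, are given for 5 members. Hba-a2 matched Hba-a1 at 147 of 150 positions after a shift and is not shown. Capitals mark words searched on both strands. The first is CACCC, the motif bound by Klf1 and its relatives, and the second is CCAAT, which appears as ATTGG where it lies on the opposite strand. The TATA-like words were TATAA, with ATAAA as a variant that can overlap it, and with CATAA as another. The GATA words were AGATAA, which no window held, and also TGATAA.
Hba-x, chr11:32276450-32276599, plus strand: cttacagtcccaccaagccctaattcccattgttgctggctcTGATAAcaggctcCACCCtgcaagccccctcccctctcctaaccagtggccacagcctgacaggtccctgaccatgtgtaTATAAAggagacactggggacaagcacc
Hba-a1, chr11:32283522-32283671, plus strand: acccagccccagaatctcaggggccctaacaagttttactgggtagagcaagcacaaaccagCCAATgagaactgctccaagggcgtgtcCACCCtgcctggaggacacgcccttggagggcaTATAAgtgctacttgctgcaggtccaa
Hbb-y, chr7:103853208-103853357, minus strand: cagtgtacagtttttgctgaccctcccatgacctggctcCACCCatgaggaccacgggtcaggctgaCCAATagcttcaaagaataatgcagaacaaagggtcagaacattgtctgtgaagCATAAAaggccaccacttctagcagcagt
Hbb-bs, chr7:103827929-103828078, minus strand: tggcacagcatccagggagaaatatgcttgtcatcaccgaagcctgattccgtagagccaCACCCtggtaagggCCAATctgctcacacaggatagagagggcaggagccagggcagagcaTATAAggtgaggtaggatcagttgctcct
Hbb-bt, chr7:103813924-103814073, minus strand: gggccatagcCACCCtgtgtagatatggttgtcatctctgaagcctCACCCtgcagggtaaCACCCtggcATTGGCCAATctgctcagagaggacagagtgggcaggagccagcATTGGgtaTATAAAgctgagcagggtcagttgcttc
CACCC occurred in the window of all 6 members that had a RefSeq promoter, against 37.4% of 32851 mouse promoters. CCAAT occurred in 5 of them, all but Hba-x, against 24.5%. A TATA-like word lay 27 to 30 bases before the start in each of the 6. Over the mouse promoters, TATAA is found in 14.2%, ATAAA in 24.1% and CATAA in 15.5% of windows of this length. Those shares count each word alone, at any position and on either strand, so they give no rate for that position. TGATAA occurred only in the Hba-x window among the 6, against 4.45%. Embryonic and adult members thus shared most of these words, and a match describes letters and not a bound factor.

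The libraries were deep and of like size. Counts came to between 37853988 and 47794799 per library, so 1 count equalled 0.0209 to 0.0264 CPM, the count scaled to a common library total. All levels that follow are CPM after TMM scaling, which corrects for the make-up of a library. Each targeted gene had its 3 lowest levels in the mutants. Foxc1 stood at 23.1, 36.9 and 24.2 CPM in the controls (E420, E434, E435) and at 3.56, 9.61 and 3.51 CPM in the mutants (E423, E433, E440), and Foxc2 at 1.99, 4.83 and 3.22 CPM and at 0.649, 1.14 and 0.737 CPM. Libraries E423 and E440 lay close together, with an SD of the log2 ratio over genes of 0.135 and a chi-square per gene of 2.27 on RSEM fragments, as did E420 and E435 (0.156 and 5.42). For the other 13 pairs the SD was 0.481 to 1.31. Sampling alone gives a chi-square of 1 per gene. All 6 were kept as separate embryos because the labels name them so, which these values do not test. Libraries E434 and E433 stood apart in cartilage genes, with 28598 and 10623 CPM summed over 14 chondrocyte genes against 679 to 2147 CPM in the other 4.

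Together the 7 globin genes took 2.59%, 2.16% and 2.88% of all counts in the controls (E420, E434, E435). In mutants E423, E433 and E440 they took 0.888%, 1.86% and 0.911%. Summed over the members, controls had 24953 ± 2593 CPM and mutants 12238 ± 4985 CPM (SD, n = 3 each). Every mutant was below every control, E423 and E440 by 2.69-fold and 2.65-fold from the control mean and E433 by 1.39-fold.

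The adult genes carried nearly all of this RNA. Hbb-bs, an adult beta chain gene, stood at 8254, 7294 and 9504 CPM in the controls (E420, E434, E435) and at 3215, 5727 and 3215 CPM in the mutants (E423, E433, E440). Hbb-bt, the other adult beta gene, stood at 5889, 4736 and 6336 CPM in controls and at 1959, 3887 and 2040 CPM in mutants. All mutants lay below all controls for both, and E433 lay between the controls and the other mutants.

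Hba-a1, an adult alpha chain gene, stood at 5965, 5778 and 6405 CPM in controls and at 2263, 4607 and 2260 CPM in mutants. Hba-a2, its copy, stood at 4816, 4547 and 5291 CPM in controls and at 1850, 3753 and 1916 CPM in mutants. The groups did not overlap for either gene, and the order of the mutants was like that of the beta genes, with E433 nearest to the controls.

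The embryonic genes behaved differently in E433. Hbb-y, the epsilon-y chain gene, stood at 11.3, 7.94 and 11.6 CPM in controls, at 0.698 and 0.824 CPM in mutants E423 and E440, and at 14.7 CPM in mutant E433. Thus 2 mutants were below the control mean by 14.7-fold and 12.5-fold, and the other mutant was above every control. Its 95% counting interval in E433, 13.1 to 16.4 CPM, lay above those of controls E420 (9.84 to 12.9 CPM), E434 (6.82 to 9.19 CPM) and E435 (10.3 to 13.0 CPM).

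Hba-x, the zeta chain gene, stood at 3.56, 3.27 and 4.04 CPM in controls, at 0.505 and 0.498 CPM in E423 and E440, and at 4.22 CPM in E433. It was below the control mean by 7.17-fold in E423 and 7.27-fold in E440, and E433 was again the highest library, though its interval of 3.40 to 5.18 CPM overlapped those of all 3 controls (E420 2.78 to 4.5 CPM, E434 2.56 to 4.10 CPM, E435 3.28 to 4.92 CPM). Hbb-bh1, the beta-h1 chain gene, had the fewest counts, with 35, 23 and 48 counts in controls and 12, 49 and 14 counts in the mutants (E423, E433, E440). These equalled 0.891, 0.507 and 0.989 CPM and 0.289, 1.14 and 0.303 CPM. Its intervals in E423 (0.106 to 0.628 CPM) and E440 (0.122 to 0.625 CPM) overlapped those of controls E434 (0.258 to 0.897 CPM) and E420 (0.523 to 1.42 CPM). Overlap of intervals does not decide whether libraries differ, and single libraries were not tested against each other.

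**Figure D2:**
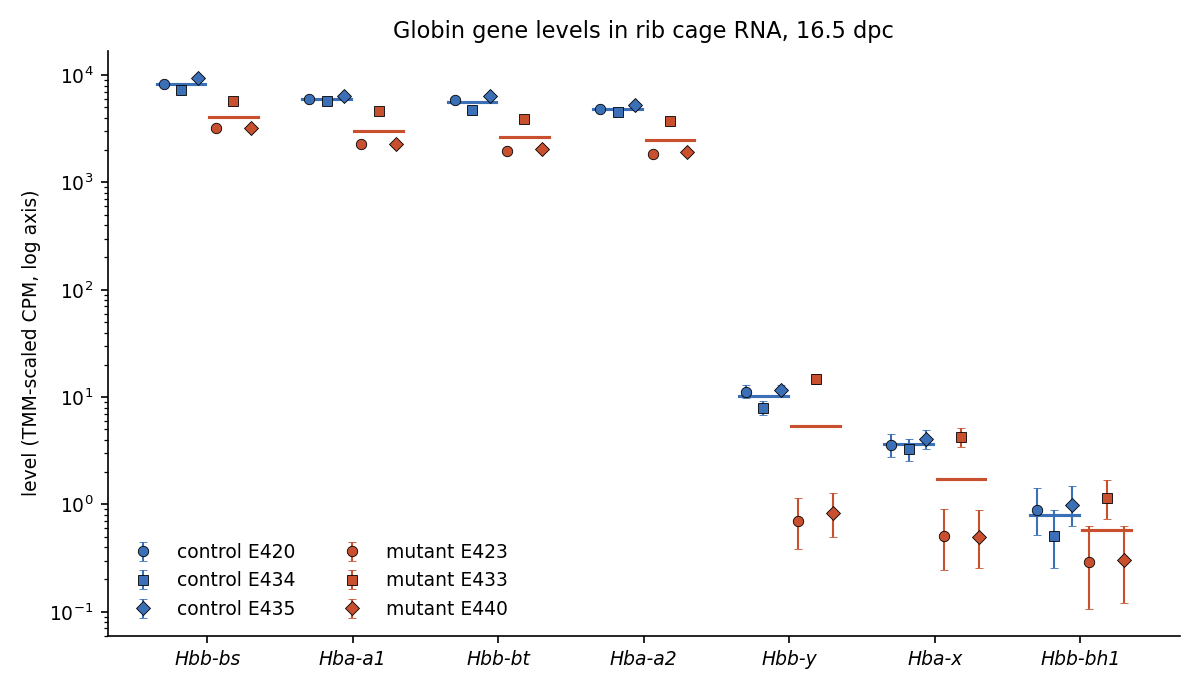
Level of each globin gene in TMM-scaled CPM on a log axis, 1 point per library, with 95% Poisson intervals for counting error and horizontal lines at the group means. For each adult gene the 3 mutants lie below the 3 controls, while for Hbb-y mutant E433 (14.7 CPM) is above the controls and mutants E423 and E440 (0.698 and 0.824 CPM) are far below.

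All 26596 genes with at least 10 counts were tested between the groups by the quasi-likelihood test of edgeR, adjusted by the Benjamini-Hochberg method, and a call needed an adjusted p under 0.1 with a log2 difference of 1 or more. None of the 7 globin genes was called in either direction, where 0.0301% of all genes tested were called lower and 0.0338% higher. The adult genes had log2 fold changes of -1.04 for Hbb-bs (SE 0.276, adjusted p = 0.366), -1.10 for Hbb-bt (SE 0.304, adjusted p = 0.376), -0.99 for Hba-a1 (SE 0.307, adjusted p = 0.400) and -0.96 for Hba-a2 (SE 0.299, adjusted p = 0.400). At an unadjusted p under 0.05, the count was 4 of 7, all lower, against 4.7% of all genes tested lower and 5.9% higher. The groups did not overlap, with every mutant lower, in the same 4 adult genes, against 8.21% of all genes tested (6.81% with every mutant higher). For the embryonic genes the log2 fold changes were -0.92 for Hbb-y (SE 1.11, adjusted p = 0.797), -1.06 for Hba-x (SE 0.821, adjusted p = 0.680) and -0.47 for Hbb-bh1 (SE 0.598, adjusted p = 0.810), and the groups overlapped in each. The standard errors of Hbb-y and Hba-x were larger than those of the adult genes, as E433 lay on the other side of the controls from E423 and E440.

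The number of calls changed with the test and with E433. By the Wald test of DESeq2, 2 of 7 members were called lower, Hbb-bs (adjusted p = 0.00236) and Hbb-bt (adjusted p = 0.00461), against 0.459% of genes tested (and 1.33% called higher), and Hba-a1 and Hba-a2 had adjusted p = 0.0186 and 0.0211 but missed the fold limit. On RSEM expected counts, edgeR called 0 of 7, against 0.0228% of genes tested lower and 0.0228% higher, and DESeq2 called 2 of 7 lower, Hbb-bs and Hbb-bt, against 0.424% lower and 1.21% higher. Without mutant E433, edgeR called 7 of 7 lower, against 1.37% of genes tested (and 2.84% called higher), with log2 fold changes of -3.74 for Hbb-y (SE 0.247, adjusted p = 0.00304), -2.84 for Hba-x (SE 0.187, adjusted p = 0.00304), -1.41 for Hbb-bh1 (SE 0.392, adjusted p = 0.0990) and -1.37 to -1.49 for the adult genes. The mutants in the fit without E433 are only the close pair E423 and E440. The spread among mutants that it measures is therefore the spread within this pair. Without both E433 and E434, edgeR also called 7 of 7 lower, against 2.59% lower and 5.66% higher. What is left in that fit are the close pairs E420 with E435 and E423 with E440, so its small standard errors measure the spread within those pairs. With the libraries of each close pair summed into 1, edgeR called 0% of all genes in either direction, so the 0 of 7 members called there say nothing of the globins in particular. At an unadjusted p under 0.05 in that fit there were 0 of 7 members, against 1.35% of all genes lower and 1.54% higher. Without E423 the log2 fold change of Hbb-y was -0.40 (SE 1.03) and without E440 it was -0.41 (SE 1.07), and edgeR called 0% of all genes, and so 0 of 7 members, in each. At an unadjusted p under 0.05, 2 of 7 members (Hbb-bs and Hbb-bt) were lower in both fits, against 2.49% of all genes without E423 (3.09% higher) and 2.51% without E440 (3.12% higher). The smallest 2-sided p that an exact permutation over 3 against 3 embryos allows is 0.1.

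**Figure D3:**
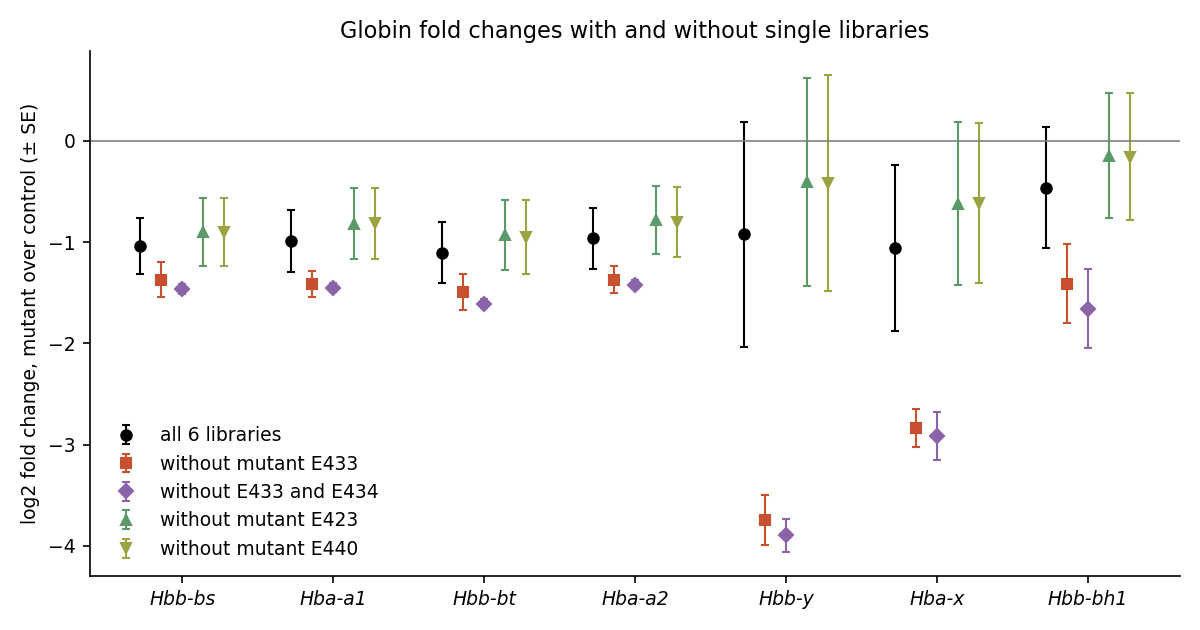
Log2 fold change of each globin gene, mutant over control, with its standard error, from edgeR with all 6 libraries with single libraries left out and without both E433 and E434. For Hbb-y the value moves from -0.92 with all libraries to -3.74 without E433 and -0.40 without E423, whereas the adult genes lie between -0.78 (Hba-a2 without E423) and -1.61 (Hbb-bt without E433 and E434).

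Embryonic and adult RNA were then set against each other within each library, which needs no scaling between libraries. The share of embryonic genes in all globin RNA, from RSEM expected counts, was 0.0584%, 0.0481% and 0.0548% in the controls (E420, E434, E435). It was 0.0145% and 0.0134% in mutants E423 and E440 and 0.107% in mutant E433. The mutants thus lay on both sides of the controls, and no mutant lay within the control range. The exact (Clopper-Pearson) 95% intervals were 0.0423% to 0.0655% over the controls from the lowest to the highest bound, 0.00963% to 0.0210% in E423, 0.00902% to 0.0191% in E440 and 0.0968% to 0.117% in E433, so counting error did not bridge them. The group means, 0.0538% ± 0.0052 (SD, n = 3) and 0.0449% ± 0.0536 (SD, n = 3), differed by less than the spread among mutants.

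The beta-like chains showed this most. Hbb-y and Hbb-bh1 made up 0.0800%, 0.0659% and 0.0738% of beta-like RNA in controls and 0.0172%, 0.162% and 0.0147% in the mutants (E423, E433, E440). Hba-x made up 0.0303%, 0.0284% and 0.0304% of alpha-like RNA in controls and 0.0113%, 0.0471% and 0.0117% in the same mutants. Both shares were below the controls in E423 and E440 and above them in E433, though for the alpha-like share the exact interval of E433 (0.0378% to 0.0580%) overlapped that of control E420 (0.0235% to 0.0385%). Put as a ratio, adult RNA exceeded embryonic RNA by 1711-fold, 2078-fold and 1825-fold in controls, by 6896-fold and 7477-fold in E423 and E440, and by 936-fold in E433.

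**Figure D4:**
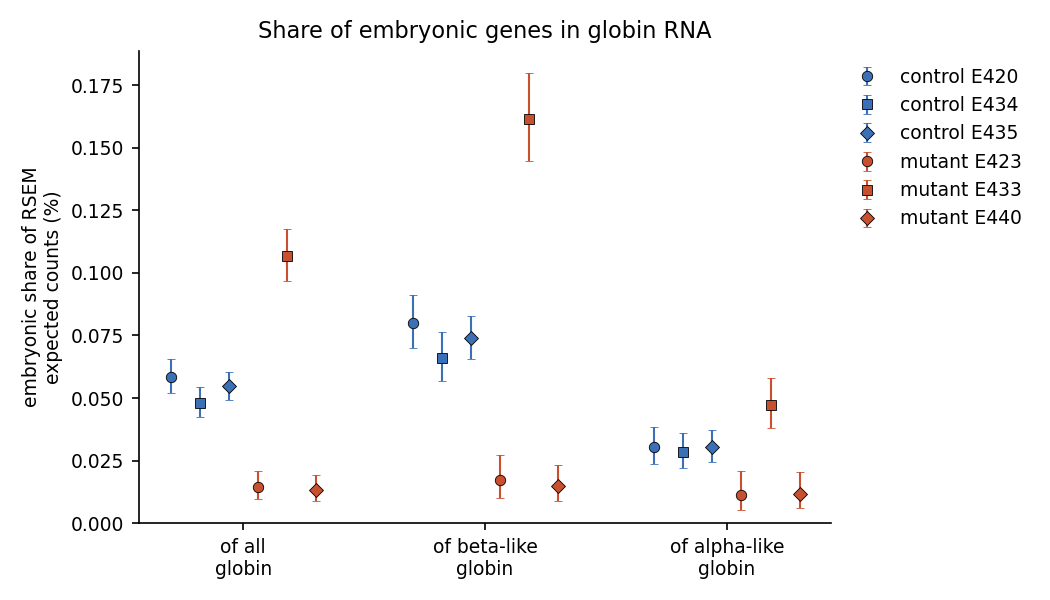
Share of embryonic genes in all globin RNA, in beta-like RNA and in alpha-like RNA, in percent of RSEM expected counts, for each library with its exact 95% interval. In each, mutants E423 and E440 lie below the 3 controls and mutant E433 lies above them.

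The mix of embryonic genes also varied. Of the counts of the 3 embryonic genes, Hbb-y took 71.7%, 67.8% and 69.7% in controls and 73.3% in E433, but 46.8% in E423 and 50.7% in E440. The exact 95% intervals, with a fragment taken as the unit, were 27.3% to 64.0% in E423 and 33.4% to 66.6% in E440, and overlapped that of control E434 (61.7% to 73.3%). On RSEM fragments Hbb-y took 70.0% to 74.1% in controls, 74.8% in E433, 50% in E423 and 56.7% in E440. Hbb-bh1 took 4.33% to 5.96% in controls and 5.66% in E433, but 19.4% in E423 and 18.7% in E440, from 12 and 14 counts, with intervals of 7.45% to 37.5% and 7.74% to 34.3% that overlapped that of control E420 (3.49% to 9.05%). On RSEM fragments it took 2.0% to 3.37% in controls, 4.04% in E433, 14.3% in E423 (4 of 28) and 3.33% in E440 (1 of 30), so the higher share in E440 was not seen there. Its featureCounts counts were 1.44 to 7.0 times the RSEM fragments multiplied by 2, compared with 0.958 to 1.12 times for Hba-x and Hbb-y.

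The balance of alpha-like to beta-like RNA did not separate the groups. The ratio of alpha-like to beta-like RNA was 0.769, 0.903 and 0.783 in controls and 0.842, 0.920 and 0.836 in the mutants (E423, E433, E440), and the groups overlapped. Within the beta pair, the RSEM ratio of Hbb-bs to Hbb-bt was 3.56, 3.32 and 3.34 in controls, 4.11 and 4.32 in E423 and E440 and 3.51 in E433. From featureCounts the same ratio was 1.40 to 1.54 in controls and 1.47 to 1.64 in mutants, and the groups overlapped by either pipeline.

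Compared per transcript length, in TPM from RSEM, which scales for transcript length and library total, the control levels ran from 33235 ± 4025 TPM for Hbb-bs, 28766 ± 1596 TPM for Hba-a2, 9589 ± 426 TPM for Hba-a1 and 8247 ± 967 TPM for Hbb-bt down to 29.8 ± 5.54 TPM for Hbb-y, 7.41 ± 0.621 TPM for Hba-x and 1.22 ± 0.457 TPM for Hbb-bh1 (SD, n = 3). This order held within each of the 6 libraries in RSEM. The places of Hba-a2, Hba-a1 and Hbb-bt rest on how RSEM divided each pair, which featureCounts did differently. The control ranges of Hbb-bs and Hba-a2 overlapped, although Hbb-bs was the higher within every library, by a ratio of 1.01 to 1.24. In the mutants the ranges also overlapped for Hba-a1 and Hbb-bt, for Hbb-y and Hba-x and for Hba-x and Hbb-bh1. The lowest ratio of Hbb-bt to Hbb-y was 125, in E433.

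The other genes of the red cell were read from lists written with earlier results of these data known. Of 12 heme synthesis genes, 10 transcription factors of red cell development, 16 membrane and skeleton genes and 15 late red cell proteins tested, 0 were called by edgeR. Their median log2 fold changes were 0.06, 0.28, 0.19 and -0.02, against -1.02 for the 4 adult globins, -0.92 for the 3 embryonic globins and 0.0081 for all genes tested. The groups did not overlap, with every mutant lower, in 7 of these 53 genes, and with every mutant higher in 5, against 8.21% and 6.81% of all genes tested. At an unadjusted p under 0.05, 7 were lower and 4 higher, against 4.7% and 5.9%. Without E433, 2 heme synthesis genes, 6 membrane genes, 4 late proteins and 0 transcription factors were called lower and none higher, against 1.37% and 2.84% of all genes tested.

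Several of them, as the adult globins, were lowest in E423 and E440. Alas2, the enzyme that starts heme synthesis in red cells, stood at 195, 187 and 197 CPM in controls and 65.4, 157 and 65.2 CPM in the mutants (E423, E433, E440). Adult globin per unit of Alas2 was thus 128, 119 and 140 in controls and 142, 114 and 145 in mutants, with overlapping groups. Bpgm, which makes 2,3-bisphosphoglycerate and so sets the oxygen affinity of haemoglobin, stood at 75.1, 74.5 and 81.7 CPM and at 33.7, 63.9 and 34.1 CPM. Ube2l6, a ubiquitin-like conjugating enzyme, stood at 46.4, 45.6 and 44.1 CPM and at 13.7, 36.7 and 13.2 CPM. All mutants were below all controls for each of these 3 genes, with E423 and E440 lowest. The edgeR log2 fold changes were -1.01 for Alas2 (adjusted p = 0.428), -0.81 for Bpgm (adjusted p = 0.406) and -1.10 for Ube2l6 (adjusted p = 0.435).

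Fech, which inserts iron to form heme, and Epb41, the membrane protein 4.1, had smaller differences, with groups apart. Their log2 fold changes from edgeR were -0.47 (adjusted p = 0.381) and -0.57 (adjusted p = 0.370). Other genes had another order. Klf1, the factor that activates adult beta globin, stood at 0.509, 0.507 and 0.495 CPM in controls, at 0.529 and 0.477 CPM in E423 and E440 and at 2.85 CPM in E433. Gata1, the master regulator of red cell genes, stood at 0.662, 0.353 and 0.907 CPM in controls and at 1.03, 2.16 and 1.6 CPM in the mutants (E423, E433, E440). Kit, the receptor of early progenitors and mast cells, stood at 17.9, 10.7 and 17.9 CPM in controls and at 28.8, 21.7 and 29.6 CPM in mutants. All mutants were above all controls for Gata1 and Kit, and neither was called (edgeR adjusted p = 0.407 and 0.389). Adult globin per unit of Klf1 was 44054 to 55660 in controls and 17549, 6298 and 19781 in the mutants (E423, E433, E440), where Klf1 rests on few counts.

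**Figure D5:**
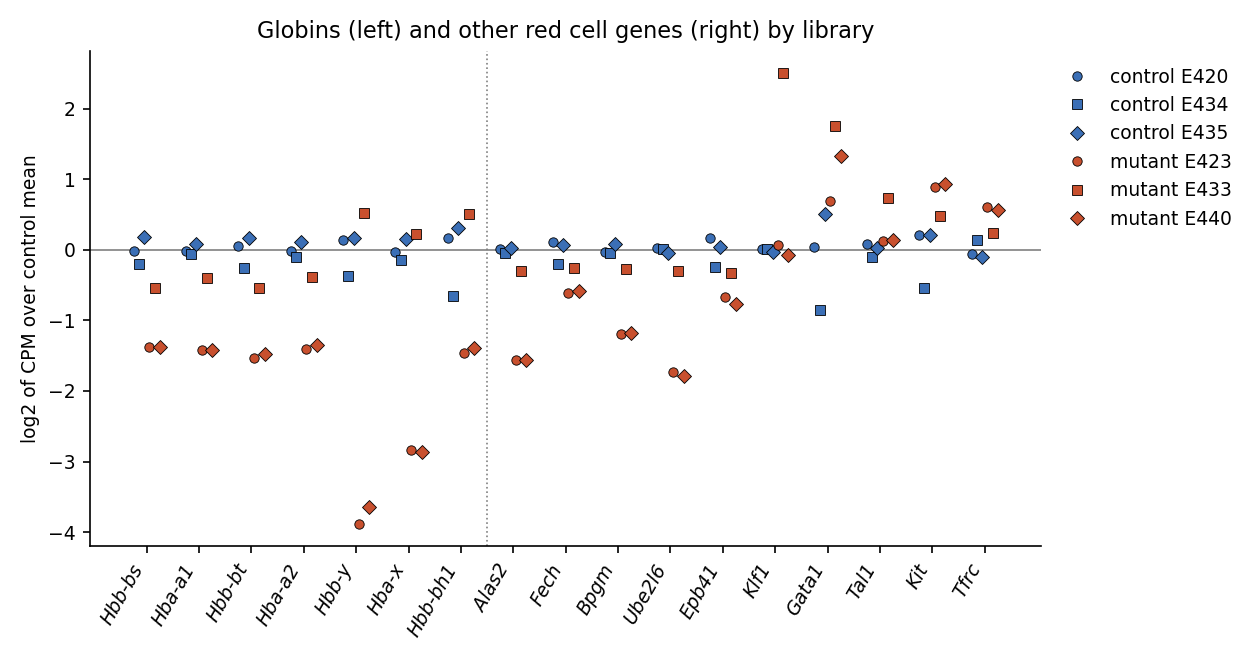
Log2 of the CPM in each library over the control mean, for the 7 globin genes left of the dotted line and for 10 other red cell genes right of it. Alas2, Bpgm and Ube2l6 are low in mutants E423 and E440 as the globins are, while Klf1 stands out in E433 at 2.5.

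The membrane and skeleton list split the mutants as the embryonic globins did. Over its 16 genes, the median of log2 CPM relative to the mean of the controls was -0.75 in E423, -0.98 in E440 and 0.74 in E433, and 11 of the 16 were highest in E433. For the 15 late proteins it was -0.12, -0.13 and 0.14, and for the 12 heme synthesis genes 0.00, 0.02 and 0.06. Set against the mean log2 level of the membrane list, log2 summed globin was 11.24, 11.14 and 11.43 in controls and 10.46, 9.98 and 10.72 in the mutants (E423, E433, E440). The mean difference was -0.88 on the log2 scale, with all mutants lower.

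Among all 16562 genes with a mean of at least 1 CPM, those whose pattern over the 6 libraries was most like that of Hbb-y included Pclaf, Fndc5, Gria1 and Slc14a1, with Pearson correlations of log2 CPM of 0.997 to 0.998. Slc14a1, the urea transporter of red cells, stood at 9.26, 8.25 and 9.09 CPM in controls and at 3.66, 10.6 and 4.2 CPM in the mutants (E423, E433, E440). Pclaf, a protein of DNA replication, had a narrower range, with 107, 101 and 109 CPM and 71.1, 111 and 70.5 CPM. For Hbb-bs the nearest were Ubr7, Arl1, Marcks, Cdc25a and Calm2 (0.996 to 0.998), of which Marcks stood at 563, 533 and 578 CPM in controls and at 443, 508 and 447 CPM in mutants. A correlation over 6 libraries of which E423 and E440 lie close together describes this order and is no more than that.

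The genes known to act on the switch from embryonic to adult globin were also read in the whole tissue, where most are expressed in many cell types. Of 13 such genes, 0 were called by edgeR in either direction, with a median log2 fold change of -0.02, and DESeq2 called 0. At an unadjusted p under 0.05 in edgeR, 1 was lower (Igf2bp3) and 1 higher (Myb), against 4.7% of all genes tested lower and 5.9% higher. Bcl11a, a repressor of embryonic and fetal globin genes, stood at 15.2, 5.89 and 15.4 CPM in controls and at 21.0, 10.7 and 18.9 CPM in the mutants (E423, E433, E440). Zbtb7a, another such repressor, stood at 96.6, 56.6 and 91.3 CPM and at 131, 65.3 and 119 CPM. Sox6, which represses Hbb-y, stood at 43.4, 71.9 and 40.4 CPM and at 49.4, 57.8 and 47.8 CPM. For Bcl11a and Zbtb7a the library with the lowest level in each group was the one rich in cartilage RNA, E434 or E433, and for Sox6, a cartilage gene as well, it was the one with the highest level.

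Hmga2, a chromatin protein of fetal tissues, stood at 22.1, 24.0 and 22.4 CPM in controls and at 14.2, 24.7 and 14.2 CPM in the mutants (E423, E433, E440). Igf2bp1, an RNA-binding protein of fetal tissues, stood at 54.2, 51.3 and 49.4 CPM and at 35.5, 55.8 and 33.9 CPM. Both were highest in E433 and lowest in E423 and E440, as the embryonic globins were, and neither was called (edgeR adjusted p = 0.607 and 0.610). Lin28b stood at 0.713, 0.618 and 0.907 CPM and at 0.866, 1.30 and 0.585 CPM. Myb, a factor of progenitor cells, was higher in all mutants than in all controls, at 3.61, 2.03 and 3.69 CPM and 4.59, 4.36 and 5.87 CPM. The other 6 genes (Dnmt1, Igf2bp3, Klf3, Mbd2, Nr2c1 and Nr2c2) had log2 fold changes between -0.18 and 0.53.

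Markers of other cell types also separated E433 from E423 and E440. Summed over 12 hepatocyte genes, the level was 31.9 to 53.9 CPM in controls, 35.1 and 36.7 CPM in E423 and E440 and 676 CPM in E433, and all 12 were highest in E433. Alb, serum albumin, stood at 7.94, 22.5 and 8.43 CPM in controls and at 16.5, 320 and 16.2 CPM in the mutants (E423, E433, E440), and no gene of the list was at 0 in any library. The part of liver RNA in the globin levels of E433 was not tested. Summed over 10 keratinocyte genes, the level was 18.2 to 6426 CPM in controls, 3269 CPM in E433 and 27847 and 27976 CPM in E423 and E440. Flg, the filaggrin of the late epidermis, stood at 0.102, 0 and 0.0206 CPM in controls, at 0.116 CPM in E433 and at 546 and 481 CPM in E423 and E440. Adipocyte genes (8 summed) stood at 829 and 846 CPM in these mutants and 369 CPM in E433, against 248 to 308 CPM in controls, and muscle genes (10 summed) stood at 33503 and 32630 CPM in these mutants and 19472 CPM in E433, against 14976 to 24822 CPM in controls. Summed over 9 osteoclast genes, the level was 608 to 633 CPM in controls. It was 303 and 297 CPM in E423 and E440 and 125 CPM in E433. Every mutant was below every control for all 9, against 8.21% of all genes tested. The adipocyte, keratinocyte and muscle lists are given as sums without a test, and their part in the low globin levels of E423 and E440 was not tested. Vascular endothelium, which lines the vessels that hold the blood, stood at 606 to 771 CPM over 12 genes in controls and 567, 694 and 554 CPM in the mutants (E423, E433, E440).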

How the data were processed

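The authors sequenced stranded mRNA libraries from both ends, 1 per embryo, from rib cages of 3 control and 3 mutant mouse embryos at 16.5 dpc. Groups follow the genotype labels, which give no litter or batch, though the methods state that littermates were compared. The authors aligned reads to GRCm38 with HISAT2 2.1.0 and deposited whole-number counts per gene from featureCounts 1.6.0, each end apart, without strand and from primary alignments. The authors also deposited RSEM 1.2.31 expected counts and TPM from STAR 2.7.6 alignments, where fragments that fit several genes are shared by a model. Left out were the FPKM columns, the authors' DESeq2 comparisons (fold changes and p-values) and the 12 columns of library values that stand beside them.

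Genes with 10 or more counts in sum entered edgeR 4.0.16 in R 4.3.3 (TMM, glmQLFit, glmQLFTest, no covariate, Benjamini-Hochberg). Log2 CPM had a prior count of 2. DESeq2 1.42.0 was an alternative, and expected counts were rounded to whole numbers for tests. The steps were tested on simulated data. Names, coordinates and coding sequences came from GENCODE M21 on GRCm38. Of 241 list genes 239 matched; Ahsp and Rhex did not and were not analysed here. Poisson intervals take 2 counts as 1 fragment, and all intervals cover counting error only.

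The members, lists and alternatives were chosen with earlier results of these data known. Genes named are the members, Foxc1 and Foxc2, up to 6 genes per list (those past both limits, then the lowest p) plus the one with the highest mean CPM, the switching regulators and minor globins in full, and the 5 genes most like Hbb-bs and Hbb-y. Some genes that this rule names are not reported here.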

Additional observations from a re-analysis of the deposited data

How the results depend on the processing

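No paired analysis was possible because the embryo numbers of the groups differ and no label pairs control with mutant embryos, although the study's methods state that littermates were compared. All results keep to 3 embryos a group of which E423 with E440 and E420 with E435 lie close together, so the number of independent samples may be smaller than the number of libraries. The cause of each change given here was not tested. The number of globin genes called lower was 0 with all libraries, 2 with DESeq2 on the counts, 2 with DESeq2 on the RSEM expected counts and 7 without E433 and E434, and it ran from 0 to 7 when each library was left out in turn, with 7 only without E433. With the close libraries summed, or without E423 or E440, 0 of all genes tested were called, so those settings say nothing of the globins. The number called lower stayed at 0 with DESeq2's size factors, TMM without the globin genes, robust empirical Bayes, filterByExpr and no low-count filter. It also did with RSEM expected counts in edgeR, copies summed, close libraries summed and no limit on the fold. The other limits on the adjusted p, 0.01 and 0.05, are stricter than the main 0.1, so 0 there was fixed beforehand. Under every setting 0 were called higher. DESeq2 gave no adjusted p for Hbb-y. No fold change of a member turned direction in any fit. The difference in the share of embryonic genes, mutant minus control, was -0.00888 percentage points of all globin, and leaving out single libraries moved it between -0.0398 and 0.00687, above 0 without E423 (0.00631) or E440. For beta-like globin it was -0.00871 and moved between -0.0573 and 0.0162, above 0 without E423 (0.0150) or E440. For alpha-like globin it moved between -0.0182 and -0.000289. The log2 ratio of summed globin, -1.03, moved between -1.41 and -0.86, and the log2 ratio of embryonic to adult RNA, -0.96, between -1.94 and -0.45. Set against the transcription factor list in place of the membrane list, the globin difference was -1.54 rather than -0.88. Over the 4 red cell lists, 0 genes were called lower in the main fit, 2 with DESeq2 (1 higher), 3 with DESeq2 on RSEM counts, 13 without E433 and E434, and 0 to 12 with single libraries left out. Over all genes tested, edgeR called 8 lower and 9 higher, DESeq2 122 and 355, and edgeR without E433 353 and 734. Depth limits Hbb-bh1 most, with 12 to 49 counts per library.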

Other observations

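The globin clusters hold minor genes that the members leave out. Hbq1a, a theta-like gene of the alpha cluster, stood at 0.764, 0.728 and 0.680 CPM in the controls (E420, E434, E435) and at 0.337, 0.487 and 0.217 CPM in the mutants (E423, E433, E440), with every mutant lower and no call (edgeR log2 fold change -1.06, adjusted p = 0.408). Hbq1b, its copy, stood at 0.356, 0.684 and 0.886 CPM and at 0.289, 0.951 and 0.477 CPM, with overlapping groups. Hbb-bh3, in the beta cluster, was at most 0.178 CPM in any library. The globins of other tissues behaved otherwise. Mb, the myoglobin of muscle, stood at 6.97, 6.73 and 6.08 CPM and at 6.45, 5.08 and 6.26 CPM, and Cygb, the cytoglobin of fibroblasts, at 16.7, 16.4 and 18.4 CPM and at 23.4, 21.0 and 22.8 CPM, higher in every mutant without a call (adjusted p = 0.356). The 6 neighbours tested of the alpha cluster include Nprl3, whose introns hold the enhancers of the alpha genes. They had 0 calls by edgeR or DESeq2 and a median log2 fold change of -0.03. At an unadjusted p under 0.05 in edgeR, the count was 0 of 6, against 4.7% of all genes tested lower and 5.9% higher. Nprl3 itself stood at 15.4, 15.0 and 14.7 CPM and at 14.4, 13.9 and 15.6 CPM.

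Platelet genes, products of a lineage that shares progenitors with red cells, did not move as 1 group. Gp1ba, part of the receptor for von Willebrand factor and the gene with the lowest p of the list, stood at 0.356, 0.485 and 0.495 CPM in the controls (E420, E434, E435) and at 1.44, 0.998 and 0.867 CPM in the mutants (E423, E433, E440), with every mutant higher (edgeR log2 fold change 1.30, adjusted p = 0.307). Treml1, a platelet receptor, stood at 0.738, 0.596 and 0.639 CPM in controls and at 0.120, 0.696 and 0.130 CPM in the mutants (E423, E433, E440). Gp9, like Gp1ba a part of the receptor for von Willebrand factor, stood at 1.02, 0.905 and 0.825 CPM and at 0.192, 0.905 and 0.325 CPM. Pf4, platelet factor 4, did not share this order, at 19.3, 17.0 and 22.2 CPM and 28.4, 20.8 and 29.9 CPM. Of the 10 platelet genes tested, 0 were called by edgeR with all libraries, 1 was lower and 2 were higher at an unadjusted p under 0.05 (4.7% and 5.9% of all genes tested), and DESeq2 called 1 higher, Gp1ba. Without E433, edgeR called 2 lower and 1 higher (1.37% and 2.84% of all genes tested).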
